A study of Homo sapiens with 9 samples.

Results

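Mucin-type O-glycosylation begins when a polypeptide GalNAc-transferase of the GALNT family moves N-acetylgalactosamine from UDP-GalNAc to a serine or threonine of a protein passing through the Golgi. The family members overlap in the sites they use but differ in preference, and some act mainly on peptides that already carry a sugar. The sugar is then extended to core structures and capped with sialic acid, and the products coat secreted proteins and cell-surface receptors. The transcripts of 10 GALNT genes (GALNT1, GALNT2, GALNT3, GALNT5, GALNT6, GALNT7, GALNT10, GALNT11, GALNT12 and GALNT15) were followed here, out of 60609 gene identifiers in the count tables. The 10 genes were listed by name, around GALNT15, which had been seen to differ between the NCBP2-overexpressing clones A4 and A1. GALNT15 was thus selected on that difference in read counts, which is given below as a description with no test. All 10 genes passed the filter on low counts and were among the 21682 genes tested.

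The cells were U2-OS, an established human osteosarcoma line, grown in DMEM with fetal bovine serum. Clones A1 and A4 both overexpress NCBP2, the subunit of the nuclear cap-binding complex that holds the RNA cap, and each gave 3 libraries (A, B and C). The vector group was 3 separate clones made the same way with an empty vector, with 1 library each, here called vector A, B and C. All 3 groups share the U2-OS background and were made as clones in the same way, and no promoter or expression system of the vector is given in the sources used here. A1 and A4 are each a single clone, so a difference between A1 and A4 cannot be told apart from a difference between any 2 clones of the line. The same limit holds for either clone against vector. The NCBP2 arm joins 6 libraries from 2 clones, and its p-values treat libraries of 1 clone as separate replicates. With counts summed per clone, 0 genes had an adjusted p under 0.05 between the arms by edgeR. Nothing in the labels says that the libraries of 1 clone came from separate cultures, so the p-values measure the spread between these libraries, which may be technical in part.

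NCBP2 itself was 90.6 to 98.4 CPM (counts scaled to a common library size) in the vector libraries, 298.9 to 348.4 CPM in clone A1 and 456.2 to 1035 CPM in clone A4. Counts in genes ranged from 29234022 to 50554080 per library. The A1 library A was unlike the others: its log2 CPM correlated at 0.899 to 0.928 with the other libraries, which correlated at 0.947 to 0.970 among themselves, and it had counts in 21823 genes against 25390 to 29787. Many of the results below that moved without it are given with and without it, though not all. Of 6 markers of mesenchymal and bone-lineage cells, 5 were above 1 TPM (a level per length, explained below) in each group, all but COL1A2, and their summed level was 1944 to 2487 TPM in A1, 2483 to 2623 in A4 and 2740 to 2954 in vector. Epithelial markers summed to 55.7 to 110.3 TPM in A1, 55.1 to 86.2 in A4 and 88.5 to 138.3 in vector, with KRT8 and KRT18 present and KRT19 at or near 0. The mesenchymal sum was lower in every NCBP2 library than in every vector library. The epithelial sum was lower than vector in A4 and overlapped in A1. Single markers did not all follow the sums. Between NCBP2 and vector, 2 of 6 mesenchymal markers and 1 of 4 tested epithelial markers had a log2 fold change above 0. RUNX2 averaged 230.8 CPM in the NCBP2 libraries and 200.4 in vector, and EPCAM 3.48 and 2.66. In A4, 3 of 6 mesenchymal markers were above 0. The part of these markers in the results below was not tested. The blood marker PTPRC was at 0.0792 to 0.370 TPM, on 17 to 57 reads a library, and the endothelial marker CDH5 at 0 to 0.482 TPM, on 0 to 54 reads. CD3E, CD14 and PECAM1 had 0 to 5 reads a library.

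GALNT15 (ENSG00000131386) lies on the plus strand of chromosome 3 of GRCh38 at 16174680 to 16231992, and no other annotated gene overlaps it. GALNT7, the most abundant of the 10 transcripts, lies on the plus strand of chromosome 4 at 173168811 to 173323967. The 250 bases upstream of their starts, from the RefSeq promoter table (GRCh38.p14), are shown because the account turns on GALNT15 and GALNT7 is the most abundant member. The windows are chr3:16174430-16174679 (+) and chr4:173168561-173168810 (+), written 5′ to 3′ with every CG dinucleotide in capitals.
GALNT15: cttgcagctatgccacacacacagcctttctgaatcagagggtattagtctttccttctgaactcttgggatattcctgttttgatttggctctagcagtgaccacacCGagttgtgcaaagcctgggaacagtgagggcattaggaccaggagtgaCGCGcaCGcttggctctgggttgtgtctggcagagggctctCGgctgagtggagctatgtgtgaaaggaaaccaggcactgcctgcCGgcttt
GALNT7: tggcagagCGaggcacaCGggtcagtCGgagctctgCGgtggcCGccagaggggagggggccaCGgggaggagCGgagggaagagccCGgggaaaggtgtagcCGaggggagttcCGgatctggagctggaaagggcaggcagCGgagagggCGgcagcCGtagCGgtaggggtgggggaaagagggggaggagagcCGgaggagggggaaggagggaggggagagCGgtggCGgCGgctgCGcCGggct
The GALNT15 window holds 6 CG dinucleotides at 53.2% G+C, and the GALNT7 window 20 at 72.4%. Over 27305 promoters of the same length the medians were 11 CG dinucleotides and 58% G+C, and 38.7% of promoters had fewer CG dinucleotides than GALNT15, against 67.9% for GALNT7. On either strand, GALNT7 held 1 match to the GC box letters GGGCGG, which 42.3% of promoters hold, and GALNT15 none. Neither window held TATAAA, present in 11.1% of promoters, or CCAAT, present in 33.0%. In all, 8 of the 10 genes had a window in the table; GALNT5 and GALNT6 had none.

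The 10 genes covered a wide range of levels. On a scale per length (TPM, counts per kilobase of exon scaled to the same total in each library), GALNT7 averaged 52.1 ± 10.7 (SD over 9 libraries) and GALNT1 44.9 ± 11.1. GALNT2 followed at 34.5 ± 8.06 TPM. GALNT1 and GALNT2 are broadly expressed transferases that act on bare peptides, and GALNT7 acts mainly on peptides that are already glycosylated. These 3 genes held 74.5% to 86.3% of the summed TPM of the 10. GALNT10, a further transferase that prefers glycosylated peptides, averaged 16.1 ± 2.02 TPM, and GALNT11, which modifies linker regions of the LDL receptor family, 6.65 ± 1.60 TPM. GALNT15 averaged 2.88 ± 1.99 TPM and GALNT6 2.43 ± 0.860 TPM. The scarcest were GALNT12 (0.715 ± 0.369 TPM), GALNT3 (0.410 ± 0.330 TPM), which protects the phosphate-regulating hormone FGF23 from cleavage, and GALNT5 (0.309 ± 0.262 TPM). Between neighbours in this order the ranges over the 9 libraries were separate for GALNT2 and GALNT10 and for GALNT10 and GALNT11, and overlapped elsewhere. With lengths taken from each gene's longest transcript, GALNT2 (50.2 TPM) passed GALNT1 (48.4 TPM) and the rest of the order held.

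**Figure D1:**
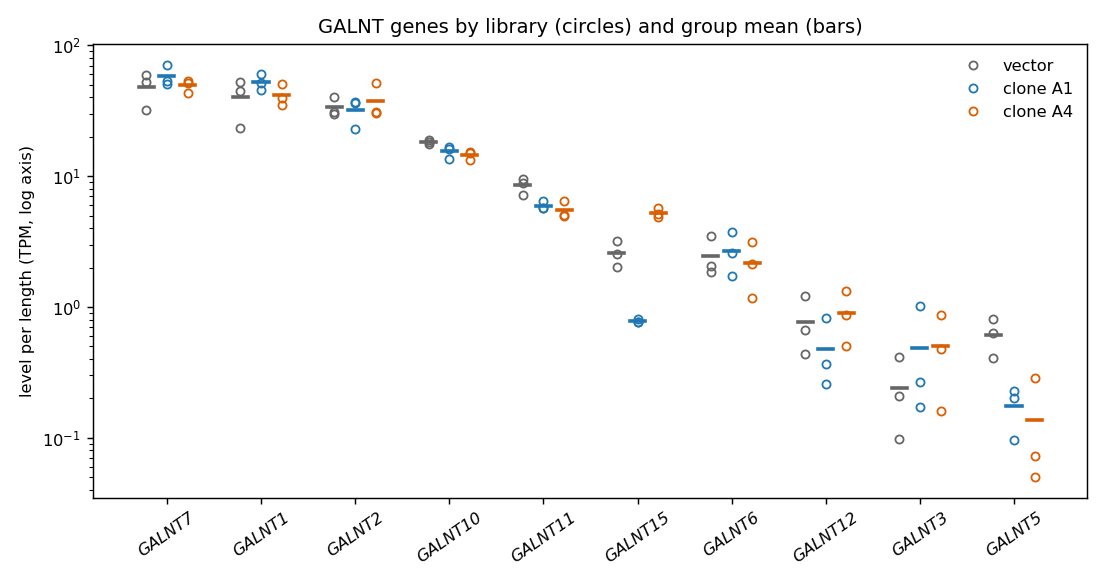
Level per length (TPM, log axis) of the 10 GALNT genes, ordered by their mean. Each circle is a library, coloured by group, and each bar is the mean of 3 libraries. GALNT15 is the gene whose 3 groups separate, with clone A1 at 0.765 to 0.810 TPM, vector at 2.02 to 3.22 and clone A4 at 4.91 to 5.73.

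GALNT15 was 1.72, 1.72 and 1.60 CPM in the A1 libraries A, B and C, from 49, 64 and 68 reads. In the A4 libraries it was 10.1, 13.6 and 9.72 CPM, from 481, 599 and 434 reads. The vector libraries lay between, at 5.59, 4.70 and 6.68 CPM, from 258, 241 and 274 reads. The 3 groups did not overlap: every A1 library was below every vector library and every A4 library was above them. In bulk RNA, fewer cells with a transcript and less transcript per cell cannot be told apart. As log2 fold changes, A1 was at -1.75 (SE 0.29) against vector and A4 at 0.98 (SE 0.27). A4 stood 2.73 (SE 0.29) above A1, a 6.62-fold difference in level. These 3 values share libraries with the difference that chose the gene, so they carry no p. Over 16 other ways of fitting the counts, which included leaving out each library in turn, the A4 to A1 difference ran from 2.54 to 2.80. Without clone A1 replicate A it was 2.74.

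Over all NCBP2 libraries together, GALNT15 spread on both sides of vector. The 6 NCBP2 libraries averaged 6.41 ± 5.36 CPM and the 3 vector libraries 5.66 ± 0.993 CPM. The log2 difference between the arms was 0.19 (SE 0.65). The spread of the pooled arm contains the difference between the clones that chose the gene, so this value is also given with no p. Its sign was not stable, since leaving out clone A4 replicate B gave -0.18 and the equal-weight mean of the clones in the fit by clone gave -0.39.

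**Figure D2:**
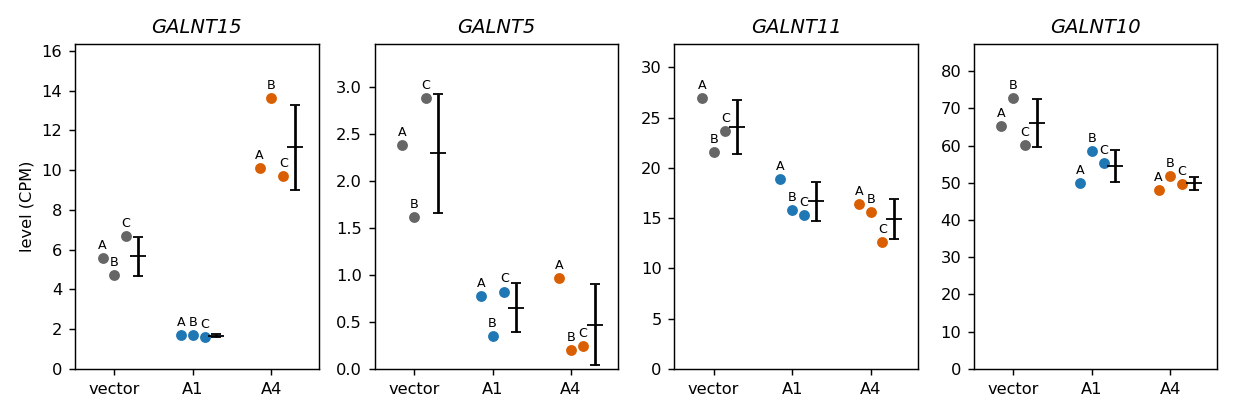
Level (CPM, linear axis from 0) of GALNT15, GALNT5, GALNT11 and GALNT10 in each library, labelled by its letter, with the group mean and SD beside the points. GALNT15 has A1 below and A4 above the vector libraries, whereas GALNT5, GALNT11 and GALNT10 have both clones below all 3 vector libraries.

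GALNT15 made up little of the family in any library, and the pool as a whole differed less. Its share of the summed TPM of the 10 genes was 0.427% to 0.490% in A1, 1.57% to 1.83% in vector and 2.86% to 4.21% in A4. The summed level was 169.4 ± 8.98 TPM in A1, 157.9 ± 19.1 in A4 and 155.6 ± 24.4 in vector, and these ranges overlapped. GALNT15 passed GALNT6 in the A4 libraries, at 4.91 to 5.73 TPM against 1.17 to 3.15. In A1 it was below GALNT6, at 0.765 to 0.810 TPM against 1.72 to 3.71.

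GALNT5, GALNT10 and GALNT11 were lower in both NCBP2 clones than in every vector library, and none of these differences passed the adjusted threshold. Of the 9 genes other than GALNT15, 0 had an adjusted p under 0.05 by edgeR's quasi-likelihood test between the NCBP2 arm and vector, where 0.0184% of all tested genes did, and DESeq2 also called 0 of them. At an unadjusted p under 0.05 there were 3 of 9 (GALNT5, GALNT11 and GALNT10), all lower. Among all genes, 5.71% were under 0.05 in either direction and 2.96% lower. Removing A1 library A kept this count at 3. The count dropped to 2 on removing any of A4 library A, vector A or vector B. Summing the counts per clone also gave 2. GALNT5, GALNT11 and GALNT10 were the members whose groups did not overlap, against 3.74% of all genes in either direction and 2.26% lower. The median log2 fold change of the 10 was -0.07, beside 0.02 over all tested genes, and 4 were above 0.

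GALNT5 had the largest of these 3 differences and the fewest reads. It was 0.774, 0.350 and 0.823 CPM in A1 (22, 13 and 35 reads) and 0.965, 0.205 and 0.246 CPM in A4 (46, 9 and 11 reads). In the vector libraries it was 2.38, 1.62 and 2.88 CPM (110, 83 and 118 reads). All 6 NCBP2 libraries lay below the lowest vector library. The log2 difference of the arm was -2.03 (SE 0.53, unadjusted p = 0.00198, adjusted p = 0.402, edgeR). Against vector, A1 was at -1.82 (SE 0.66, adjusted p = 0.505) and A4 at -2.27 (SE 0.67, adjusted p = 0.475), or -3.34 without its highest library, A4 A. The 4 tested protein-coding genes that start within 1000000 bases of GALNT5 had a median of 0.27 in the arm contrast, opposite in sign to GALNT5.

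GALNT11, on chromosome 7, was lower by less, on far more reads. It was 18.9, 15.8 and 15.4 CPM in A1, 16.4, 15.6 and 12.7 CPM in A4, and 26.9, 21.6 and 23.7 CPM in vector. Every NCBP2 library was lower than every vector library. The arm's log2 difference was -0.61 (SE 0.18, unadjusted p = 0.00417, adjusted p = 0.509), with A1 at -0.53 (SE 0.21, adjusted p = 0.562) and A4 at -0.69 (SE 0.21, adjusted p = 0.483). An antisense transcript overlaps GALNT11, and 14.5% of its stranded reads were on the opposite strand, which the counts used here leave out. In a limma-voom fit with a quality weight for each library, GALNT5 (adjusted p = 0.0221) and GALNT11 (adjusted p = 0.024) passed the threshold, which 216 genes then did in place of 4.

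GALNT10, on chromosome 5, showed the smallest of these 3 differences. Its levels were 50.0, 58.6 and 55.2 CPM in A1, 48.2, 51.7 and 49.7 CPM in A4, and 65.3, 72.8 and 60.2 CPM in vector. The highest NCBP2 library, at 58.6 CPM, was close to the lowest vector library, at 60.2 CPM. The arm's log2 difference was -0.34 (SE 0.14, unadjusted p = 0.0269, adjusted p = 0.773). MFAP3 overlaps GALNT10 on the same strand, and how reads shared by both were counted is not given in the sources used here.

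The 3 abundant transferases overlapped between each NCBP2 clone and vector. GALNT7 was 170.7, 115.2 and 119.4 CPM in A1, 111.3, 110.4 and 108.2 CPM in A4, and 121.8, 78.9 and 132.1 CPM in vector. A1 lay at 0.28 on the log2 scale above vector with all libraries and at 0.09 without clone A1 replicate A, its highest library, and the A1 libraries lay above those of A4. GALNT1 ran from 62.9 CPM (A4 C) to 109.3 CPM (A1 A) in the NCBP2 libraries and from 43.7 to 87.6 CPM in vector. GALNT2 ran from 62.5 to 122.5 CPM in the NCBP2 libraries and from 74.9 to 113.2 CPM in vector. Adjusted p was 0.999 for each of these 3 genes between the arms. Vector replicate B held the lowest vector level of GALNT7 and GALNT1 and the highest of GALNT2, and without it the arm difference of GALNT7 was -0.05, of GALNT1 -0.05 and of GALNT2 0.18, each opposite in sign to the value with all libraries.

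The remaining 3 were scarce and scattered within groups. GALNT6, a close relative of GALNT3, was 3.21 to 8.91 CPM in the NCBP2 libraries and 4.44 to 9.29 CPM in vector. GALNT12 was 0.269 to 1.55 CPM in the NCBP2 libraries and 0.507 to 1.30 CPM in vector. GALNT3 was 0.259 to 1.65 CPM in the NCBP2 libraries and 0.146 to 0.650 CPM in vector, on 6 to 58 reads a library. For GALNT3 the highest library was clone A1 replicate A, and without it the log2 difference of the arm went from 0.95 to 0.55 and that of A1 against vector from 0.99 to -0.21. Their ranges overlapped in every contrast, and adjusted p was 0.999 for each between the arms.

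**Figure D3:**
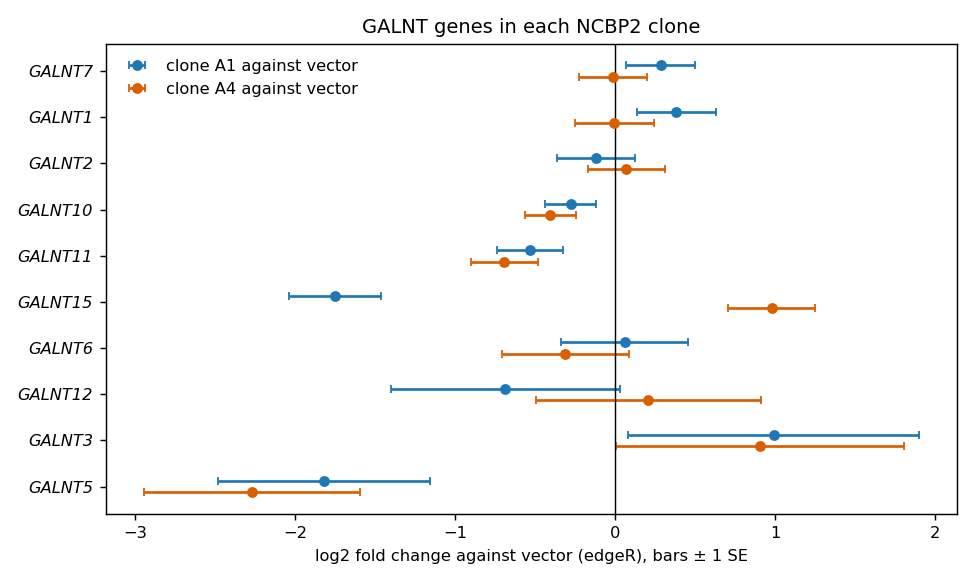
Log2 fold change of each GALNT gene in clone A1 and in clone A4 against vector, with bars of 1 SE from the fit by clone. Both clones lie below 0 for GALNT5, GALNT11 and GALNT10 and above 0 for GALNT3, and the other 6 genes have the clones on opposite sides, farthest apart for GALNT15 (-1.75 and 0.98). Both contrasts use the same 3 vector libraries.

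Taken clone by clone, the other 9 genes gave no call either. Against vector, 0 of the 9 genes other than GALNT15 had an adjusted p under 0.05 in A1, where 0.0646% of all tested genes did, and 0 in A4, where 0.115% did. At an unadjusted p under 0.05 there were 2 of 9 in A1 (GALNT5 and GALNT11), beside 7.51% of all genes in either direction and 4.27% lower, and 3 of 9 in A4 (these and GALNT10), beside 5.25% and 2.75%. All of these were lower. The count in A1 was 0 without its library B and 1 without its library C, without vector A or without vector C. It was 1 with counts without regard to strand and 3 by limma-voom. The count in A4 was 2 without its library A, without vector A, without vector B or with no filter on low counts. Both counts thus rest on single libraries. A1 and A4 share the vector libraries, so these counts are not separate evidence. Between the clones, GALNT7 was the 1 of the 9 genes whose libraries did not overlap, beside 13.6% of all genes, from which nothing is read because this contrast chose GALNT15 and the list around it. On the log2 scale GALNT7 was at -0.30 in A4 against A1, and at -0.09 without clone A1 replicate A, against 2.73 for GALNT15.

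The genes around GALNT15 differed less between the clones than it did. In the 1000000 bases to either side of its start, 12 other protein-coding genes were tested. In order along the chromosome they were CAPN7, SH3BP5, METTL6, EAF1, COLQ, HACL1, BTD, ANKRD28, DPH3, OXNAD1, RFTN1 and PLCL2. Between A4 and A1 their median log2 fold change was -0.00, with a range from -0.33 to 0.75, and 6 were above 0. Against vector the medians were 0.07 in A1 and 0.04 in A4, beside -1.75 and 0.98 for GALNT15. DPH3 and OXNAD1, the nearest, start 90.3 and 90.5 kb away and differed by -0.19 and -0.03 between the clones. COLQ (0.75) and RFTN1 (0.73) were the most different. COLQ was at -0.35 (SE 0.66) in A1 and 0.39 (SE 0.66) in A4, and RFTN1 at -0.30 (SE 0.31) and 0.42 (SE 0.31). ANKRD28 was at -0.13 and 0.15. These genes had the order of GALNT15 around vector, by smaller amounts. CAPN7, EAF1, DPH3 and PLCL2 had the reverse order, with A1 above and A4 below vector. Between A4 and A1 the lowest adjusted p among the 12 was 0.700 by edgeR, and within 500000 bases the median of the 4 tested genes was 0.13.

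The surroundings of GALNT11 differed from those of GALNT15. Of 16 tested protein-coding genes within 1000000 bases of its start, 15 were below 0 in the arm contrast, with a median of -0.71 beside -0.61 for GALNT11. The median was -0.79 in A1, with 16 of 16 below 0, and -0.63 in A4, with 15 of 16. Among them, RHEB was at -0.71, NUB1 at -0.70, PRKAG2 at -0.82 and KMT2C at -0.58. None of the 16 passed the threshold in the arm contrast (lowest adjusted p = 0.368). ASIC3, at 0.16, was the gene above 0. Without clone A1 replicate A the median was -0.67 with 15 of 16 below 0, and without vector replicate A, the highest vector library for GALNT11, it was -0.54. Neighbouring genes are not independent of each other, and the part of a chromosome segment in the level of GALNT11 was not tested. Around GALNT10 the median of 9 tested genes was -0.08.

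**Figure D4:**
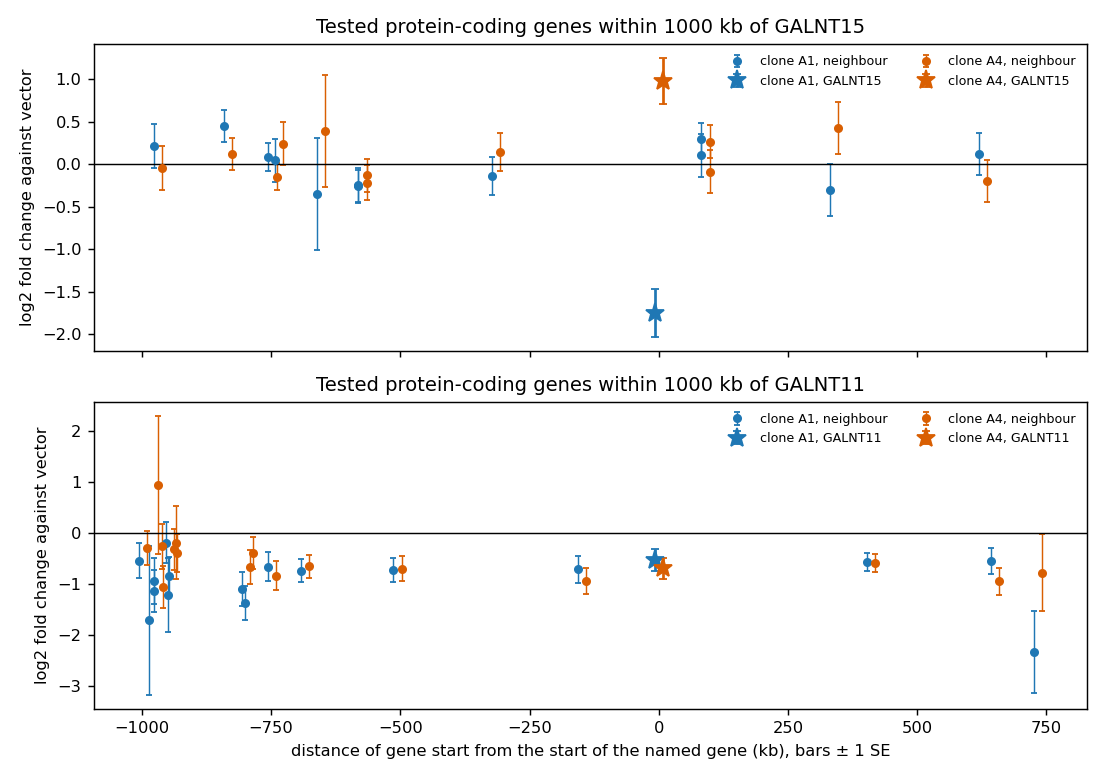
Log2 fold change against vector of tested protein-coding genes by the distance of their start from that of GALNT15 (top) and GALNT11 (bottom), with bars of 1 SE and the named gene as a star. Points of the clones are set slightly apart along the axis for legibility. The neighbours of GALNT15 lie around 0 while the star of each clone stands farther from it, and the neighbours of GALNT11 lie mostly below 0 together with it.

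The genes whose levels followed GALNT15 most closely lay on other chromosomes. Pearson's r of log2 CPM was computed over the 9 libraries for 11414 protein-coding genes with a mean log2 CPM of at least 1. The 5 highest were XKR4 (r = 0.981), PLXDC2 (0.945), SERAC1 (0.940), LIMCH1 (0.935) and KIAA1217 (0.930). Spearman's rho for them was 0.967, 0.883, 0.933, 0.983 and 0.883, and r over the 8 libraries without clone A1 replicate A was 0.977, 0.930, 0.948, 0.941 and 0.921. They were picked as the highest of many, and the 9 points come from 5 clones, with A1 and A4 giving 3 each, so r describes a shared order of A1, vector and A4 and has no p. XKR4, on chromosome 8, averaged 3.76 ± 0.313 CPM in A1, 9.54 ± 0.128 in vector and 16.0 ± 3.76 in A4. LIMCH1, an actin-associated protein gene on chromosome 4, averaged 153.1 ± 18.9, 204.1 ± 24.9 and 287.4 ± 32.1 CPM in the same order. PLXDC2 and KIAA1217 are both on chromosome 10. No other GALNT gene ranked near them: among the 6 members above the level minimum, r ran from 0.177 for GALNT2 to -0.429 for GALNT6.

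**Figure D5:**
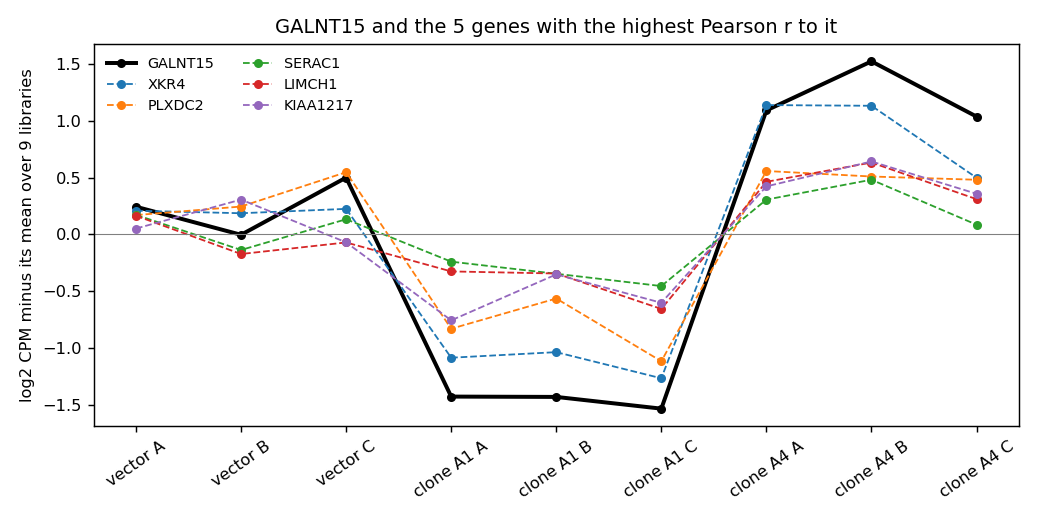
Log2 CPM of GALNT15 and of the 5 genes with the highest r to it, each minus its own mean over the 9 libraries. All 6 lines have their lowest points in clone A1 and their highest in clone A4, and GALNT15 and XKR4 have the widest swings.

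The rest of the GALNT family added no call. Of 10 further family genes, 7 were tested and 0 passed the threshold in any contrast, where 0.161% of all genes did between the clones. At an unadjusted p under 0.05 edgeR gave 0 between the arms, and DESeq2 called no gene of this or the following pathway lists between the arms. GALNT16 was the most abundant of them, at 9.70 ± 3.76 TPM in the NCBP2 libraries and 12.8 ± 1.99 TPM in vector. Its log2 difference was -0.47 (SE 0.29, adjusted p = 0.999) in the arm and -0.84 (SE 0.30, adjusted p = 0.466) in A1. The A1 libraries were at 15.8, 37.0 and 31.6 CPM and the lowest vector library at 41.5 CPM. The share of all genes without overlap in A1 against vector is not given here, so nothing is read from this separation. GALNT13 was at -0.52 (SE 0.26, adjusted p = 0.906) and GALNT17 averaged 4.38 ± 0.771 TPM in the NCBP2 libraries and 4.79 ± 0.962 in vector. GALNT4, GALNTL5 and GALNTL6 had 9, 8 and 1 reads over all libraries and were not tested. GALNT4 lies within POC1B and the read-through gene POC1B-GALNT4, and reads of overlapping genes cannot be told apart.

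Of 8 listed genes of core extension, downstream of the initiating sugar, 6 were tested and 0 passed the threshold in any contrast. By edgeR, 1 (C1GALT1C1L) had an unadjusted p under 0.05 between the arms, beside 5.71% of all genes. GCNT3 and B3GNT6 had 6 and 1 reads over all libraries and were not tested. GCNT4 was scarce, at 0.270 ± 0.163 TPM in the NCBP2 libraries and 0.471 ± 0.264 in vector. C1GALT1, which adds the galactose of the core 1 disaccharide, was at 66.9 ± 12.6 TPM in the NCBP2 libraries and 57.1 ± 24.6 in vector. Its chaperone C1GALT1C1 was at 48.0 ± 7.18 and 44.5 ± 9.39 TPM. C1GALT1C1L, an intronless copy of the chaperone gene, was higher in all 6 NCBP2 libraries (5.46 to 9.25 CPM) than in the vector libraries (4.29 to 5.17 CPM). The arms did not overlap, in either direction, for 3.74% of all tested genes. The log2 difference of C1GALT1C1L was 0.63 (SE 0.24, adjusted p = 0.746). Reads it shares with C1GALT1C1 would not have been counted, so its level is uncertain. GCNT1, which builds the core 2 branch, was 17.5, 16.9 and 20.8 CPM in A4 against 31.0, 21.6 and 30.5 CPM in A1. The clones did not overlap for GCNT1, as for 13.6% of all tested genes. Their difference was -0.59 (SE 0.21, adjusted p = 0.553).

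Among sialic acid capping enzymes, 5 of 7 listed genes were tested and 0 passed the edgeR threshold, nor did any have an unadjusted p under 0.05 between the arms. ST3GAL1, which caps core 1, was at 33.0 ± 8.10 TPM in the NCBP2 libraries and 34.0 ± 12.0 in vector. ST6GALNAC3, which adds a further sialic acid to the GalNAc of capped core 1, differed in the opposite direction to GALNT15. It was 11.1, 6.08 and 5.01 CPM in A1, 2.73, 1.84 and 2.24 CPM in A4 and 4.40, 2.01 and 4.17 CPM in vector. The A4 to A1 difference was -1.70 (SE 0.41, adjusted p = 0.239 by edgeR; 0.00972 by DESeq2), and -1.28 without clone A1 replicate A. ST6GALNAC3, GCNT1, MUC1, MUC19, CD34 and SDC3 are named for the contrast between the clones after their values were seen.

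Genes of sugar donor supply gave no call. All 12 listed genes of hexosamine and sialic acid synthesis and transport were tested, 0 passed the threshold, and edgeR gave 0 at an unadjusted p under 0.05 between the arms. GNPNAT1, an acetyltransferase of UDP-GlcNAc synthesis, was at 149.4 ± 19.0 TPM in the NCBP2 libraries and 158.0 ± 30.3 in vector. GFPT1, which controls entry into the hexosamine pathway, was at 69.1 ± 7.72 and 61.4 ± 8.15 TPM. PGM3, another enzyme of that pathway, had an arm difference of -0.22 (SE 0.16).

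Transferases that start other kinds of O-glycan were also without a call, with 9 of 9 tested. Between the arms 1 (POMT2) had an unadjusted p under 0.05, beside 5.71% of all genes. OGT, which adds GlcNAc to nuclear and cytosolic proteins, was at 110.9 ± 5.02 TPM in the NCBP2 libraries and 120.5 ± 18.2 in vector. EOGT, its counterpart in the endoplasmic reticulum, was at 35.8 ± 6.04 and 33.1 ± 8.66 TPM. POMT2, a subunit of the O-mannose transferase, was 18.3, 39.6 and 41.8 CPM in A1, 37.2, 38.7 and 37.7 CPM in A4 and 59.2, 61.6 and 48.4 CPM in vector. Every NCBP2 library was below every vector library, as for 2.26% of all tested genes. The log2 difference was -0.67 (SE 0.22, adjusted p = 0.623), or -0.54 (adjusted p = 0.315) without clone A1 replicate A.

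Proteins that carry the glycans were measured by 2 lists. Of 18 mucin genes, 8 were tested and 0 passed the threshold, with 0 at an unadjusted p under 0.05 between the arms by edgeR, while gel-forming MUC2, MUC5AC, MUC5B and MUC6 had 4, 29, 14 and 1 reads in all. MUC19, also gel-forming, had 10 to 85 reads a library, at 0.269 to 0.564 CPM in A1 and 0.819 to 1.78 CPM in A4. The clones did not overlap for MUC19 (adjusted p = 0.650), as for 13.6% of all tested genes. MUC15 was at 8.33 ± 5.71 TPM in the NCBP2 libraries and 9.24 ± 5.91 in vector. MUC1, a membrane mucin, resembled GALNT15 in the order of the clones but not in A1 against vector. It was 1.16, 3.09 and 4.44 CPM in A1, 6.73, 5.60 and 8.82 CPM in A4 and 3.64, 3.44 and 3.73 CPM in vector. A4 was 1.27 (SE 0.42, adjusted p = 0.486) above A1 on the log2 scale, and 0.91 without clone A1 replicate A. MUC20 (1.06, SE 0.67) and MUC12 (-0.94, SE 0.72) had the lowest p of the list between the arms, and both had adjusted p = 0.999. Without clone A1 replicate A the value of MUC20 was 0.46.

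Of 17 other known carriers, 14 were tested and 0 passed the threshold by edgeR, with 3 (PODXL, CD44 and APP) at an unadjusted p under 0.05 between the arms, beside 5.71% of all genes. The unadjusted counts were 4 in A1 against vector, beside 7.51% of all genes, and 1 in A4 against vector, beside 5.25%. Between the clones the count was 3, beside 1437 of all 21682 tested genes. APP and FN1 were the most abundant, at 151.3 ± 7.61 and 121.1 ± 36.8 TPM in the NCBP2 libraries and 178.8 ± 16.6 and 142.0 ± 49.2 TPM in vector. PODXL, a sialomucin of the cell surface, was 103.4 to 160.8 CPM in the NCBP2 libraries and 151.2 to 242.9 CPM in vector. Its log2 difference was -0.73 (SE 0.18, adjusted p = 0.368), and the limma-voom fit gave -0.78 with an adjusted p of 0.0279. CD44, the hyaluronan receptor, was at -0.40 (SE 0.17, adjusted p = 0.792). CD34 was 3.45, 6.18 and 4.30 CPM in A1, 9.15, 9.62 and 9.34 CPM in A4 and 11.8, 9.93 and 12.2 CPM in vector. A4 exceeded A1 by 1.01 (SE 0.27, adjusted p = 0.310 by edgeR; 0.021 by DESeq2) for CD34 and by 1.06 (SE 0.27, adjusted p = 0.279; 0.0369 by DESeq2) for SDC3, a syndecan. In A1 against vector DESeq2 called CD34 and PODXL. CD99 had 28 reads in 1 library and none in the others, and since its gene has an identical copy on chromosome Y, its level is uncertain.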

How the data were processed

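RNA was measured in 9 libraries made after ribosomal RNA removal with the KAPA kit, per the labels' protocols, although the molecule field names polyadenylated RNA. The authors deposited raw read counts per gene, unnormalized, with 1 column without strand and 1 for each strand. STAR 2.7.1a and GRCh38 are named in the submitters' processing notes, and the annotation release is not given in the sources used here. The gene-strand counts were used: the opposite strand held 5.51% to 6.42% of stranded counts. Entries for unassigned reads (4 per table, 44.5% to 63.6% of reads) were left out. They include the multimapping reads (6.80% to 16.3% of reads). Of 60609 identifiers, 60295 matched GENCODE 44, the source of symbols, coordinates and lengths.

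Groups were compared by the quasi-likelihood test of edgeR 4.0.16 in R 4.3.3 (filterByExpr, TMM scaling, robust fit) with Benjamini-Hochberg adjustment over 21682 genes and a threshold of 0.05. One fit had 2 groups (NCBP2, vector), the other 3 (A1, A4, vector). The fit by clone was also run on simulated libraries drawn independently. That run cannot speak to p-values that treat libraries of 1 clone as replicates. CPM used TMM-scaled library sizes, and TPM the exon union of each gene. DESeq2 1.42.0, limma 3.58.1 (voom with quality weights), other scalings, no filter, unstranded counts, a replicate block and leaving out each library were alternatives. Genes named were the 10 members and, per list of the pathway, the 2 highest by TPM and the 2 with the lowest arm p, with exceptions stated. GALNT15 was given no p. Members and lists were chosen with earlier results of these data known. No 2 libraries of a group agreed within sampling noise (lowest chi-square per degree of freedom 26.9).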

Additional observations from a re-analysis of the deposited data

Results flagged for a closer look

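The clones moved GALNT15 in opposite directions: every A1 library lay below and every A4 library above the vector libraries. The log2 difference between A4 and A1 was 2.73. It was the difference by which the gene was chosen, and it was not tested.

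Among the 6 NCBP2 libraries, 27 genes were examined for a library far from the rest. The rule flags about 1 in 20 groups of independent values. The libraries come from 2 clones and some genes were picked by their values, so that rate does not hold here. In 3 genes clone A1 replicate A was the library far from the rest. GALNT7 was 170.7 CPM there and 108.2 to 119.4 CPM in the other NCBP2 libraries. POMT2 was 18.3 CPM there and 37.2 to 41.8 CPM in the others. MUC20 was 3.38 CPM there and 0.329 to 1.17 CPM in the others. This library also had the fewest genes with counts, and the part of that in these values was not tested.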

How the results depend on the processing

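Over 28 results on the 10 genes, 458 refits gave 2 calls and 43 values of opposite sign, and 318 refits of 19 results on the pathway lists gave 6 calls. GALNT15 kept its sign in A1 against vector (-1.86 to -1.63), in A4 against vector (0.79 to 1.10) and between the clones under all 16 alternatives of each. The number of genes called depended on the tool. Between the arms it was 4, with 103 by DESeq2, 20 with no filter on low counts, 216 by limma-voom, 16 by the mean of the clones and 0 with counts summed per clone (906 at an unadjusted p under 0.05). In A1 against vector it was 14, with 274, 312 and 297 by the first 3 of these, and 7 from only the 6 libraries compared. In A4 against vector it was 25, with 185, 163 and 233, and between the clones 35, with 246, 231 and 149. With no filter edgeR also called SDC3, CD34, PODXL and GALNT16 in A1 against vector and SDC3, ST6GALNAC3 and LRP1 between the clones. Leaving out 1 library gave 1 to 8, 3 to 14, 7 to 41 and 10 to 56 calls in these 4 comparisons. The 8 between the arms and the 41 in A4 against vector were without clone A1 replicate A.

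Replicate letters recur in all groups, but no label says what a letter marks. Same-letter libraries deviated together at r = -0.102 to 0.179 over 9 pairs, other pairs at -0.271 to 0.221 over 18, and 4 of 9 libraries correlated best with their own letter. With a replicate block the calls were 13, 38, 53 and 51. The block turned the A4 against vector values of GALNT1 to 0.0230 and of GALNT7 to 0.0176, and no call on the 10 genes changed.

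Other settings turned the sign of further values, among them GALNT3 in A1 against vector (0.99), ST6GALNAC3 in the arm (0.45) and GALNT15 in the arm (0.19). The arm value of ST6GALNAC3 was 0.0183 without clone A1 replicate A. DESeq2 and its size factors gave 0.0048 for GALNT1 in A4 against vector. The limma-voom fit gave GALNT2 0.12 in the arm and 0.13 in A1, GALNT3 -0.12 in A1, GALNT6 0.21, GALNT7 -0.0384, GALNT15 -0.62 and ST6GALNAC3 -0.0281 in the arm, and GALNT12 -0.22 in A4. Counts without regard to strand gave GALNT2 0.0238 in the arm and GALNT12 -0.0146 in A4 against vector. The mean of the clones gave GALNT15 -0.39 in the arm. Leaving out 1 library gave arm values of -0.0474 to 0.38 for GALNT1, -0.16 to 0.18 for GALNT2, -0.33 to 0.28 for GALNT6, -0.0523 to 0.27 for GALNT7, -0.52 to 0.30 for GALNT12 and -0.18 to 0.39 for GALNT15. In A1 against vector it gave -0.25 to 0.0848 for GALNT2, -0.21 to 1.58 for GALNT3 and -0.23 to 0.46 for GALNT6. In A4 against vector it gave -0.26 to 0.17 for GALNT1, -0.18 to 0.26 for GALNT2, -0.66 to 0.0763 for GALNT6, -0.21 to 0.11 for GALNT7 and -0.33 to 0.68 for GALNT12. The cause of these changes was not tested. GALNT3, GALNT5 and GALNT12 had 6 to 118 reads in a library, and the part of depth in their spread was not tested.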
